A study of Mus musculus with 124 samples.

Results

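The dorsal dentate gyrus is the upper end of the input region of the hippocampus, and its RNA was compared between offspring of hCG-exposed dams and control offspring. Human chorionic gonadotropin (hCG) is a hormone that acts on the luteinizing hormone receptor and is given to trigger ovulation. All 12 libraries that the labels assign to dorsal dentate gyrus RNA were used, 6 labelled hCG and 6 labelled Ctrl, of 124 samples in the series. The offspring were 8 weeks old in both groups, and all were anaesthetised with tribromoethanol, perfused with buffered saline and decapitated before dissection. For the hCG group the labels give 7.5 IU injected into the peritoneum of females in natural estrus, without priming by pregnant mare serum gonadotropin. For the Ctrl group they describe estrous females housed with a vasectomised male, a protocol for collecting oocytes, so how the Ctrl offspring were conceived is not given. No genetic alteration, strain, sex, dam, litter or hour of dissection is named in the labels used here. The labels do not say that the 6 libraries of a group came from separate animals, so each p-value measures the spread between libraries, which may be technical.

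The dentate gyrus is made up mainly of granule neurons, small glutamatergic cells that receive input from the entorhinal cortex and send mossy fibres to CA3. Granule neurons fire sparsely, and firing switches on immediate early genes such as Fos, Arc and Npas4 within minutes. New granule neurons are added in the adult mouse from progenitors at the inner border of the granule cell layer. In bulk tissue, fewer cells of a type and less RNA per cell cannot be told apart.

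The libraries held 14991584 to 17859654 expected counts, and neither the total (exact permutation test over all regroupings, adjusted p = 0.76) nor the number of genes detected (adjusted p = 0.76) differed past the threshold. Levels are given in CPM (counts scaled to the library total), which compare one gene between libraries and not one gene with another, since they are not divided by length. Dentate granule neuron markers summed to between 1889 and 3006 CPM in every library, while CA1 pyramidal markers summed to between 258.3 and 434.7 CPM. Markers of the choroid plexus, the secretory tissue of the neighbouring ventricle, reached 14160 CPM in hCG library 6 and 404.7 CPM in hCG library 4, against 179.5 to 377.0 CPM in the other 10 libraries. In hCG library 6 the choroid plexus transport protein Ttr alone stood at 9021 CPM, against 4.145 to 71.69 CPM elsewhere. Meningeal and vascular fibroblast markers were also highest in these libraries, with 697.3 CPM in hCG 6 and 440.1 CPM in hCG 4, against 100.2 to 346.9 CPM in Ctrl. The same order held for ependymal markers, at 205.2 and 130.8 CPM against 57.55 to 119.9 CPM in Ctrl. None of the 13 tested choroid plexus markers, 7 ependymal markers or 15 meningeal markers was past the threshold between the groups. Where the count of a list with at least 3 called members moved by more than 1.5 times without hCG libraries 4 and 6, it is given with and without them, a comparison chosen after seeing the data. Every library held RNA of the Y-linked genes, for example 41.1 to 55.2 CPM of Ddx3y, and at most 3.64 expected counts of Xist, the RNA made from the silenced X chromosome of females.

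**Figure D1:**
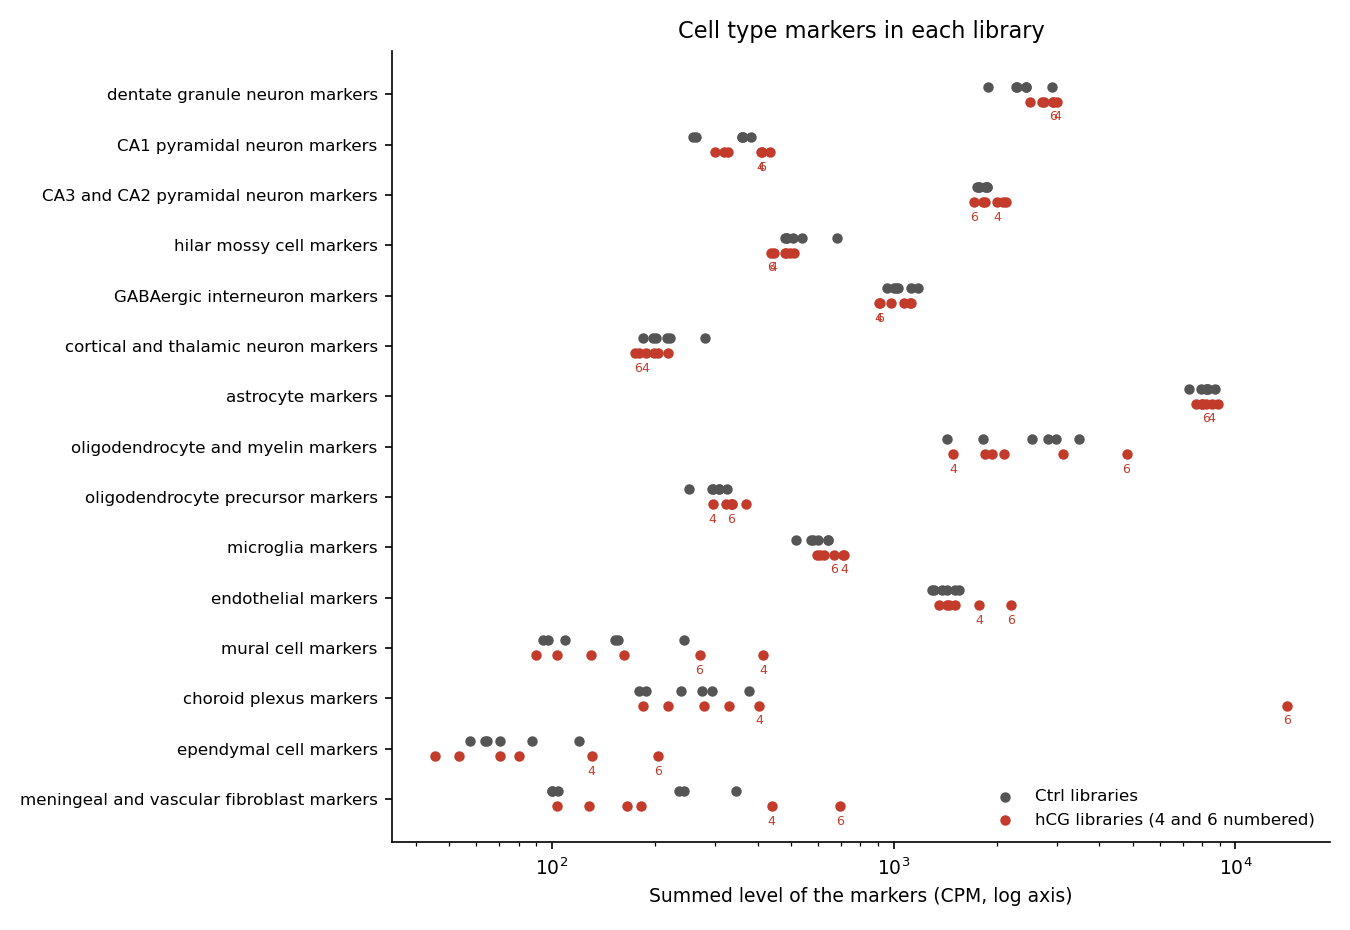
Summed level of each cell type marker list (CPM, log axis) in each of the 12 libraries, grey for Ctrl and red for hCG, with hCG libraries 4 and 6 numbered. The choroid plexus sum of hCG library 6, at 14160 CPM, stands apart from the other libraries, and the granule neuron sums of the groups overlap.

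Differences between the groups were many and mostly small. Of 13874 genes that passed the low-count filter, 648 rose in hCG offspring (4.67%) and 443 fell (3.19%), 7.86% in all, by edgeR's quasi-likelihood test at an adjusted p of 0.05. On the log2 scale the middle gene of those that rose changed by 0.35 and of those that fell by -0.34, while the median over all genes was 0.005. Of the genes that rose, 116 did so by at least 1.5-fold and 25 by at least 2-fold, and of those that fell, 67 and 21 did so. In 332 of the genes that rose and 192 that fell, the 6 hCG libraries did not overlap the 6 Ctrl libraries. Over all genes tested, 2.67% had every hCG library above every Ctrl library and 1.68% had every one below. The log2 fold change was positive in 51.0% of all genes tested. These shares over all genes are the background for every list count and sign count below. Calls were more frequent among abundant genes, from 2.3% of the 522 genes under 1 CPM to 10.7% of the 2411 genes at 100 CPM or more. Without hCG libraries 4 and 6, 357 genes were called higher and 189 lower. A gene named below as risen or fallen kept its call in each of the 12 fits that left out 1 library, unless the number of fits is given. Without hCG libraries 4 and 6 together, 79 of 170 called genes followed lost their call. Some of them had kept it in all 12 fits: Arc, Fosb, Nr4a1, Hspa1a, Dnajb1, Dnajb5, Sqle, Fdft1, Dhcr7 and Neto1. The same held for Kcnj6, Kcnab1, Cdh10, Chga, Wnt7b, Suv39h1, Copg2, Rxrb, Opalin and Tra2b. Leaving out 1 library alone lost between 17 (Ctrl 5) and 56 (Ctrl 6) of the 170 calls, with 47 for hCG 4 and 42 for hCG 6. No other pair of libraries was left out, so whether the loss comes only from having fewer libraries was not tested. The 170 were the genes picked by the naming rule and the called list members, not a sample of all called genes.

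**Figure D2:**
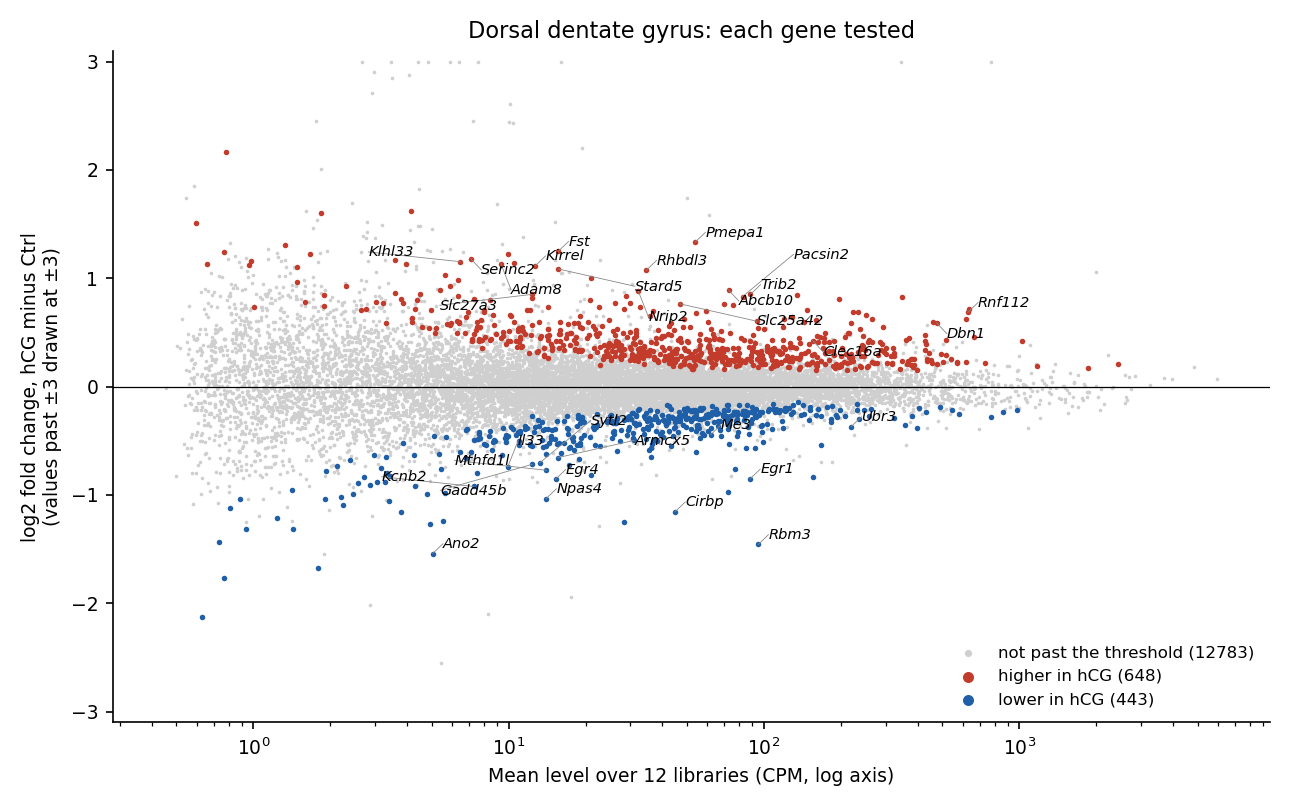
Log2 fold change (hCG minus Ctrl) against mean level over the 12 libraries (CPM, log axis) for each of the 13874 genes tested. Red points (648) were higher and blue points (443) lower in hCG offspring past the adjusted p of 0.05, and the named genes are those of largest change or smallest p.

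The largest falls among genes at a mean of at least 5 CPM without overlap between groups included Rbm3 and Cirbp. These 2 make up the list of cold-inducible RNA-binding proteins, which was chosen with earlier results of these data known. Rbm3 (X:8138975-8145880, GRCm38.p6) and Cirbp (10:80165990-80172786) encode proteins that bind mRNA and are made in larger amounts when cells are mildly cooled. Cirbp ran from 51.2 through a median of 61.52 to 73.04 CPM in Ctrl and from 22.96 through 27.86 to 33.4 CPM in hCG libraries. The groups did not overlap for either gene, and the log2 fold changes were -1.46 ± 0.12 (SE) for Rbm3 and -1.16 ± 0.11 for Cirbp (edgeR, adjusted p = 5.7e-05 for both). Ano2 (6:125690419-126040133), a calcium-activated chloride channel, fell further, from a Ctrl median of 6.542 CPM (4.542 to 13.61) to 2.71 CPM (1.806 to 3.157). Its log2 fold change was -1.54 ± 0.24 (adjusted p = 0.0017), and the highest Ctrl value came from library 1 alone. Mthfd1l, a mitochondrial enzyme of one-carbon metabolism, fell from a median of 17.5 CPM (15.55 to 21.4) to 10.88 CPM (7.195 to 12.05), a log2 fold change of -0.77 ± 0.12. Il33, an alarmin cytokine, fell from a median of 11.33 CPM to 8.403 CPM (log2 fold change -0.74 ± 0.20, adjusted p = 0.0367), with the call kept in 5 of the 12 fits without 1 library. Sytl2, which tethers vesicles to the plasma membrane, and Armcx5 fell with log2 fold changes of -0.70 ± 0.12 and -0.66 ± 0.11.

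The largest rises were also picked from genes without overlap between the groups. Among them, Pmepa1 and Fst belong to activin and TGF-beta signalling and are described with that pathway. Stard5 (7:83632017-83642328), which carries sterols and bile acids inside the cell, ran from 8.444 through a median of 10.22 to 11.37 CPM in Ctrl and from 16.19 through 21.27 to 24.09 CPM in hCG libraries. All 6 hCG libraries lay above all 6 Ctrl libraries (log2 fold change 1.09 ± 0.10, edgeR, adjusted p = 6.37e-05). Serinc2 rose from a median of 4.274 to 8.618 CPM (1.18 ± 0.22) and Adam8, a membrane-bound metalloprotease, from 4.89 to 11.69 CPM (1.14 ± 0.18). Klhl33 and Kirrel rose with log2 fold changes of 1.15 ± 0.17 and 1.12 ± 0.18. Rhbdl3, a rhomboid-family membrane protein, rose from 22.18 to 42.61 CPM, and its highest hCG value, 70.21 CPM, was in library 4. The mitochondrial transporter Abcb10 rose from a median of 51.49 to 92.95 CPM (0.89 ± 0.12), and the pseudokinase Trib2 from 66.1 to 115.8 CPM (0.85 ± 0.12). Several of the genes with the smallest p changed less in size but with little spread. Rnf112, a ubiquitin ligase enriched in brain, ran from 455.4 to 526.7 CPM in Ctrl and from 656.1 to 888.2 CPM in hCG libraries (0.69 ± 0.07, adjusted p = 6.37e-05). Pacsin2, a membrane-bending protein of endocytosis, rose from a median of 59.8 to 107.8 CPM (0.83 ± 0.09), and Slc25a42, the mitochondrial coenzyme A carrier, from 35.45 to 58.92 CPM (0.76 ± 0.08). Clec16a, which takes part in clearing mitochondria, held 128.2 to 136.5 CPM in Ctrl and 167.1 to 190.5 CPM in hCG libraries (0.42 ± 0.04).

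**Figure D3:**
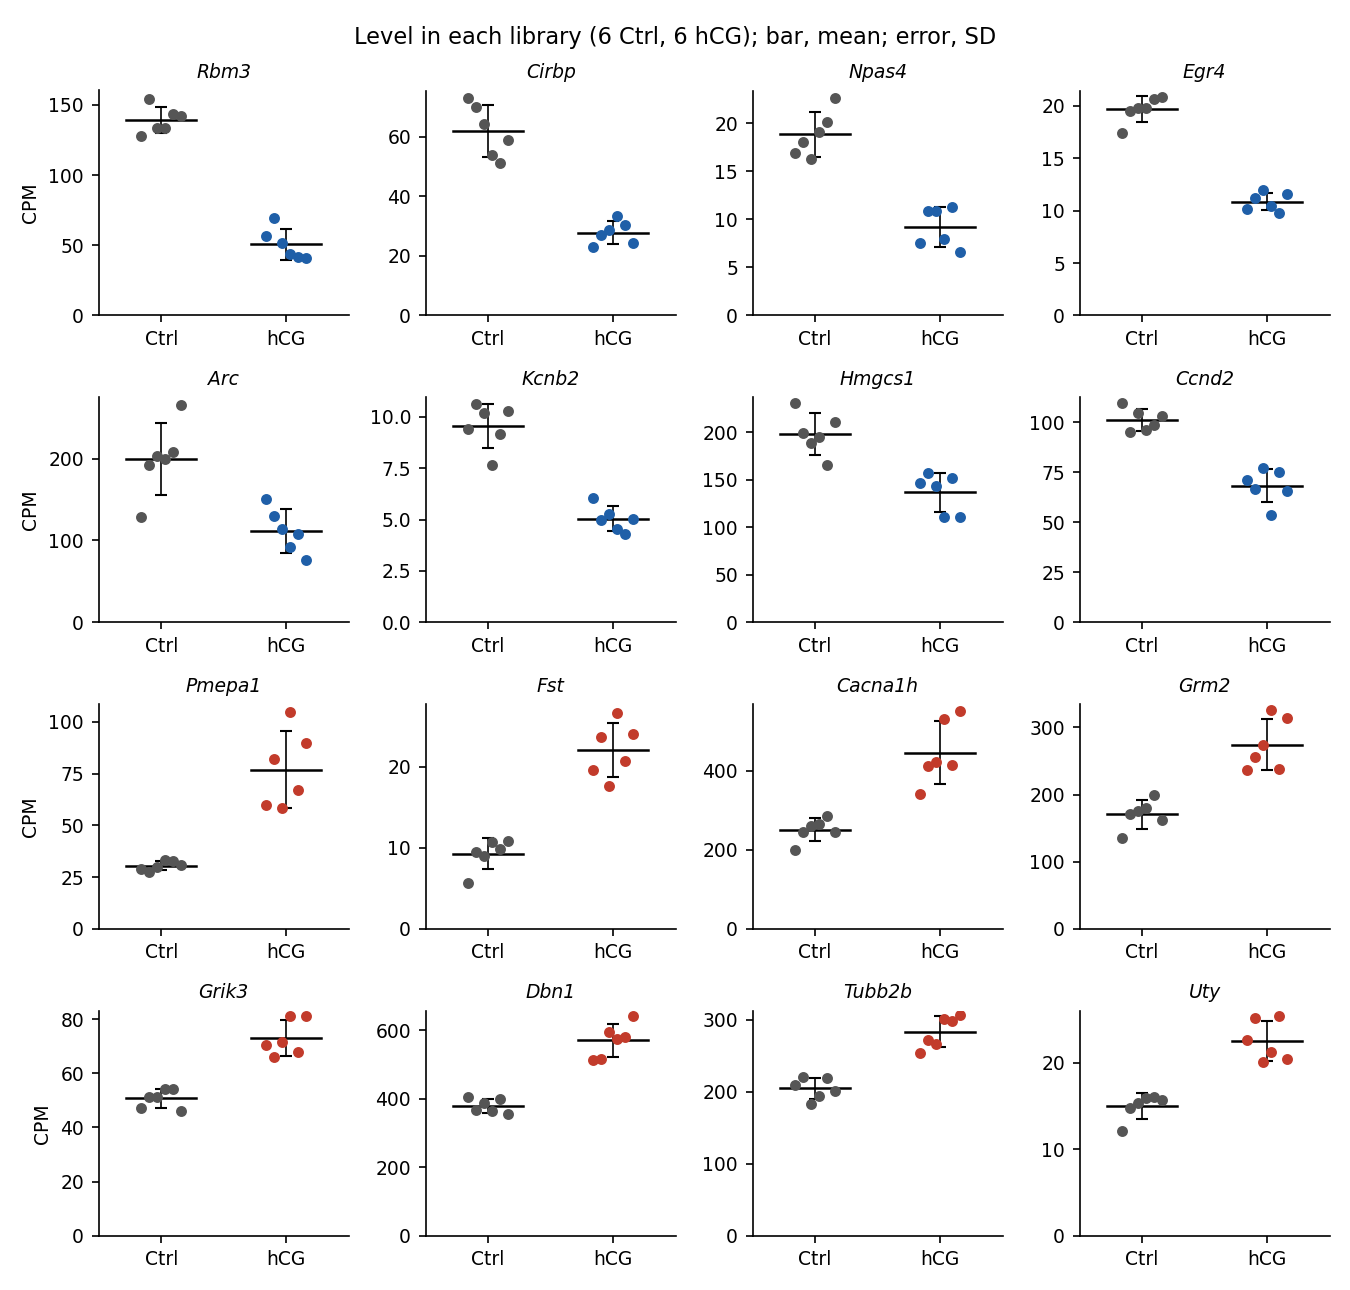
Level of 16 genes in each library (CPM, axes from 0), 6 Ctrl and 6 hCG, with the mean as a bar and the SD as the error. Rbm3, Cirbp, Npas4, Egr4, Kcnb2, Hmgcs1 and Ccnd2 show hCG points below all Ctrl points, Arc shows overlap, and the 8 genes from Pmepa1 to Uty show hCG points above all Ctrl points.

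Immediate early transcription factors, which neuronal firing induces within minutes, were mostly lower in hCG offspring. Of 19 tested, 10 fell (3.19% of all genes fell) and 2 rose, the median log2 fold change was -0.65, and 16 of the 19 values were negative. Without hCG libraries 4 and 6, 6 fell and 2 rose. Egr4 (6:85511121-85513589) ran from 17.36 through a median of 19.8 to 20.83 CPM in Ctrl and from 9.801 through 10.81 to 11.94 CPM in hCG libraries. No hCG library reached the lowest Ctrl library, and the log2 fold change was -0.86 ± 0.08 (edgeR, adjusted p = 5.7e-05). Egr1, of the same zinc-finger family, fell from 110.5 CPM (78.42 to 153.9) to 64.01 CPM (49.59 to 70.37), also without overlap (-0.85 ± 0.14). Junb, an AP-1 subunit, fell from 64.8 CPM (56.85 to 72.65) to 43.4 CPM (36.61 to 50.06), and the neuron-restricted factor Npas4 fell by 1.03 ± 0.14 on the log2 scale, neither with overlap. Fos went from a median of 28.36 CPM (16.52 to 32.88) to 15.09 CPM (9.286 to 19.26). Its groups overlapped, and its call (-0.82 ± 0.19, adjusted p = 0.0215) was lost without Ctrl library 6. Fosb (-0.73 ± 0.16), Nr4a2 (-0.67 ± 0.12) and Nr4a1 (-0.65 ± 0.15), the last 2 of them nuclear receptors, fell with overlap between the groups. Egr2 (-1.27 ± 0.33, adjusted p = 0.0307) kept its call in 5 of the 12 fits and Atf3 (-1.24 ± 0.35, adjusted p = 0.0464) in 1 of 12. Jun had a log2 fold change of -0.21 and Egr3 of -0.16, and neither passed the test.

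The 2 members that rose were Fosl2, an AP-1 subunit of slower induction, and Klf10, a zinc-finger factor induced by TGF-beta. Fosl2 ran from 64.02 through a median of 67.62 to 76.34 CPM in Ctrl and from 84.9 through 90.18 to 117.1 CPM in hCG libraries, without overlap (0.45 ± 0.08, edgeR, adjusted p = 0.00259). Klf10 rose from a median of 33.27 to 45.86 CPM with overlap (0.47 ± 0.10). Of 26 activity-induced effector and feedback genes 3 fell and 1 rose (7.86% of all genes were called in either direction), and the median of the log2 values was -0.05. Arc, whose product moves glutamate receptors away from synapses, ran from 129.2 through 201.6 to 265.8 CPM in Ctrl and from 75.85 through 110.8 to 151.3 CPM in hCG libraries (-0.84 ± 0.18, adjusted p = 0.0191), with overlap. Gadd45b, which takes part in activity-linked DNA demethylation, fell from 15.45 CPM (12.6 to 18.05) to 8.966 CPM (8.19 to 11.03) without overlap (-0.72 ± 0.10). Nrn1, a secreted factor of neurite growth, rose from 319.2 CPM (269.8 to 353.8) to 419.9 CPM (373.7 to 497.2) without overlap (0.45 ± 0.08). The neurotrophin Bdnf differed by -0.07 on the log2 scale (adjusted p = 0.627) and Homer1 by -0.21, and neither passed the test.

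Serum response factor, which drives many immediate early genes, binds the CArG box, and the promoter of Egr2 is shown for it. Of the 10 immediate early factors that fell, 9 had a RefSeq promoter window (250 bases before to 50 after a start site, GRCm38.p6). Only Egr2 among these 9 held a CArG box on either strand (11.1%), against 172 of 10978 tested genes with a window (1.57%), and 4 of its 5 windows did. In every promoter search a gene counted if any of its windows held the letters, so genes with more windows had more chances. The window at chr10:67537619-67537918 on the plus strand is printed 5′ to 3′, with the CArG box at bases 179 to 188 in capitals.
Egr2: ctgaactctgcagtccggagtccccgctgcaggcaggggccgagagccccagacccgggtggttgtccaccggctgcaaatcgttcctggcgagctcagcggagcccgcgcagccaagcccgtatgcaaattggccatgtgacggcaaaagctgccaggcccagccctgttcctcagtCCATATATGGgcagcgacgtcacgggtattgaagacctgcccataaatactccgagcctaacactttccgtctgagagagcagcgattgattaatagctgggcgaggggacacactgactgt
None of these 9 genes held the cyclic AMP response element TGACGTCA on either strand in a window, which 383 of all 10978 genes held (3.49%), as did 8 of 506 genes that rose (1.58%) and 15 of 345 that fell (4.35%). A match is a description of letters and not a binding site, and a missing match says only that the letters are not in these windows.

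Heat shock genes moved in both directions. Of 27 cytosolic chaperone and heat shock genes 3 fell and 3 rose, and the median of the log2 values was 0.02; without hCG libraries 4 and 6, 0 fell and 1 rose. Hspa1a, an inducible Hsp70, ran from 19.82 through 42.45 to 58.99 CPM in Ctrl and from 13.11 through 15.66 to 24.25 CPM in hCG libraries (-1.25 ± 0.25, edgeR, adjusted p = 0.0121), with overlap. Hspa1b (-0.98 ± 0.25) kept its call in 3 of the 12 fits, and because the pair are near-identical copies, the division of reads between them is uncertain. Dnajb1, the Hsp40 partner of Hsp70, fell from a median of 94.09 to 53.22 CPM (-0.76 ± 0.16). Hsf1, the transcription factor of the heat shock response, rose from 23.63 CPM (22.01 to 29.12) to 33.66 CPM (28.28 to 39.34), and Dnajb5 from 231.2 CPM (162.2 to 266.2) to 295 CPM (271 to 340.6). Hspb8 rose by 0.56 ± 0.15 with the call kept in 4 of the 12 fits.

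Of 24 endoplasmic reticulum chaperone and unfolded protein response genes 4 rose and 1 fell, with a median log2 fold change of 0.10. Hsp90b1, the reticulum's Hsp90, ran from 372.2 through 458.1 to 625.8 CPM in Ctrl and from 608.3 through 777.1 to 1029 CPM in hCG libraries (0.72 ± 0.16), and its call was lost without Ctrl library 3. The lectin chaperone Calr rose from a median of 487.8 to 777.9 CPM (0.62 ± 0.14), and Canx, its membrane-bound relative, by 0.30 ± 0.07. The sensor Atf6 rose by 0.24 ± 0.06, with the call kept in 6 of the 12 fits. Atf4, the effector of the integrated stress response, fell from 90.59 CPM (82.88 to 104) to 74.98 CPM (67.51 to 82.8), without overlap (-0.31 ± 0.06). Hspa5, a widely used marker of the unfolded protein response, did not pass (log2 fold change -0.05, adjusted p = 0.942).

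Of 22 circadian clock genes 2 rose and 2 fell (1 and 3 without hCG libraries 4 and 6). Per3, a period gene, rose from 49.08 CPM (48.14 to 60.29) to 70.77 CPM (59.97 to 81.19), while Nr1d1, a clock repressor, fell from 103.4 CPM (91.25 to 112.4) to 86.26 CPM (74.81 to 89.82). The log2 fold changes were 0.43 ± 0.08 and -0.28 ± 0.06 (edgeR, adjusted p = 0.00625 and 0.0133). Per1, also an activity-induced gene, fell by 0.34 ± 0.09 with the call kept in 6 of the 12 fits, and the kinase Csnk1e rose by 0.23 ± 0.06 with it kept in 4. Dbp, a clock output gene, did not pass (-0.42, adjusted p = 0.073). Because the hour of dissection is not given, clock phase and group cannot be told apart. Of 20 glucocorticoid-induced genes 1 rose, Plin4 (1.62 ± 0.43, kept in 3 of the 12 fits), and 1 fell, Per1. The glucocorticoid targets Fkbp5 (0.25, adjusted p = 0.0932) and Sgk1 (-0.01, adjusted p = 0.973) did not pass. Of 20 hypoxia and glycolysis genes 1 fell, the mitochondrial receptor Bnip3 (-0.24 ± 0.06, lost without Ctrl library 6), and none rose.

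Cholesterol synthesis genes from early, middle and late steps of the pathway fell in hCG offspring. Brain cholesterol is made locally, from acetyl coenzyme A through mevalonate and squalene, and sterol-sensing SREBP factors control the enzymes together. Of 21 synthesis genes tested, 10 fell and none rose, the median log2 fold change was -0.32, and 20 of 21 values were negative. Their summed level was 911.1 to 1066 CPM in Ctrl and 671.9 to 831.0 CPM in hCG libraries, without overlap. The number that fell was 6 without hCG libraries 4 and 6. At the start of the pathway Hmgcs1 (13:119690351-119708260) fell by 0.54 ± 0.10 on the log2 scale (edgeR, adjusted p = 0.00602). It ran from 165.1 through 196.6 to 230.7 CPM in Ctrl and from 110.6 through 144.9 to 156.7 CPM in hCG libraries, and every hCG library lay below every Ctrl library. Mvd, the decarboxylase of the mevalonate branch, fell from 19.29 CPM (16.54 to 21.78) to 13.43 CPM (12.11 to 14.92), and Msmo1, a sterol demethylation enzyme, from 50.23 CPM (47.18 to 56.57) to 38.17 CPM (31.04 to 42.24). Neither overlapped, and the log2 fold changes were -0.52 ± 0.09 and -0.45 ± 0.08. Acat2, Idi1, Fdft1 and Sqle, which act from acetyl units to squalene epoxide, fell with log2 fold changes between -0.47 and -0.41. Dhcr7, of the last steps, fell by 0.30 ± 0.07. Cyp51 (-0.31, adjusted p = 0.0995) and Lss (-0.21, adjusted p = 0.0516) did not pass, and Lbr (0.22) was the 1 member with a positive value.

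Of 29 genes of cholesterol uptake, export and regulation 4 fell and 1 rose, and the median log2 fold change was -0.09. Without hCG libraries 4 and 6, 1 fell and none rose. The number that fell was 1 without Ctrl 3 or hCG 4 alone, and 8 without Ctrl 5. Vldlr, a receptor for lipoproteins and reelin, ran from 103.4 through 107.2 to 118.8 CPM in Ctrl and from 80.56 through 86 to 88.92 CPM in hCG libraries (-0.37 ± 0.05, edgeR, adjusted p = 0.000731). Its groups did not overlap. The fatty acid enzymes Elovl6 (-0.31 ± 0.09, kept in 6 of 12) and Fasn (-0.21 ± 0.06, kept in 4 of 12) fell. Lrp8, the other reelin receptor, rose by 0.28 ± 0.07, a call lost without Ctrl library 2 and without Ctrl library 3. Srebf2, the gene of the main SREBP of cholesterol synthesis, did not pass (-0.17, adjusted p = 0.0721), nor did Insig1 (-0.12) or Apoe (0.04).

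The sterol regulatory element TCACNCCAC, the sequence SREBP factors bind, was looked for on both strands of the promoter windows of these genes. Of the 10 synthesis genes that fell, 6 had a window and 1 of them, Hmgcs1, held the element (16.7%), against 152 of 10978 tested genes (1.38%). The Hmgcs1 window, chr13:119690101-119690400 (GRCm38.p6, plus strand), is printed for this, with the element at bases 114 to 122 in capitals. This search and that for the CArG box were added after the data had been seen.
Hmgcs1: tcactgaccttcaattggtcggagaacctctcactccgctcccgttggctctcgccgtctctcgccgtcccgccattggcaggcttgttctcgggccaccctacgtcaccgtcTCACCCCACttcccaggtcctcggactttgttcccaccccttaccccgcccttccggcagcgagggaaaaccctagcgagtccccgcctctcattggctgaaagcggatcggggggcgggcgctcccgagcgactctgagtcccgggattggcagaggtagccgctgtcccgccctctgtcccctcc

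Activin and TGF-beta ligands signal through serine kinase receptors to SMAD2 and SMAD3, while BMP ligands use SMAD1 and its relatives, and several targets of the pathway feed back on it. Of 46 genes of this signalling tested 5 rose and 2 fell, and the median log2 fold change was 0.11, with 34 of 46 positive. Without hCG libraries 4 and 6, 3 rose and 1 fell. The members that rose included feedback regulators: Pmepa1 (2:173224458-173276731), which binds SMADs and limits signalling, and Skil, a SMAD co-repressor. Pmepa1 had hCG values of 58.43 to 104.7 CPM, above the highest Ctrl value of 33.41 CPM (1.33 ± 0.14, edgeR, adjusted p = 0.000155). Skil ran from 73.66 through 104 to 114.5 CPM in Ctrl and from 139.4 through 147.3 to 192.2 CPM in hCG libraries, without overlap (0.64 ± 0.10). Fst (13:114452262-114458989) encodes follistatin, a secreted protein that traps activin. It ran from 5.657 through 9.704 to 10.85 CPM in Ctrl and from 17.68 through 22.19 to 26.68 CPM in hCG libraries, without overlap (1.25 ± 0.14, adjusted p = 0.000229). The lowest Ctrl value of both Fst and Skil was that of library 1. The ligand Tgfb3 rose by 0.53 ± 0.13, a call lost without Ctrl library 2, and the inhibitory Smad7 by 0.26 ± 0.07, kept in 2 of the 12 fits. The signal carrier Smad2 fell from 31.17 CPM (29.01 to 34.84) to 22.84 CPM (20.54 to 28.89) without overlap (-0.40 ± 0.08), and Smad1 fell by 0.34 ± 0.09, kept in 3 of the 12 fits. Inhba, which encodes the activin A subunit, did not pass (0.19, adjusted p = 0.769).

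Among receptors and channels, a minority of each family was called, where 7.86% of all genes were called in either direction. Of 29 ionotropic glutamate receptor and auxiliary subunit genes 3 rose and 1 fell (2 and 0 without hCG libraries 4 and 6). Grik3 (4:125490259-125714173), a kainate receptor subunit, ran from 46.19 through 51.19 to 54.38 CPM in Ctrl and from 66.17 through 70.93 to 81.37 CPM in hCG libraries. Its groups did not overlap (0.53 ± 0.07, edgeR, adjusted p = 0.000437). Cnih3 (1:181350459-181460641), which assists AMPA receptors, rose from 91.86 CPM (86.04 to 104.8) to 143.2 CPM (115.2 to 173), also without overlap (0.62 ± 0.09). Grin2c, an NMDA receptor subunit, rose by 0.27 ± 0.07, a call lost without Ctrl library 3 and without Ctrl library 6, and Neto1, a kainate and NMDA receptor partner, fell by 0.46 ± 0.11. Of 7 metabotropic glutamate receptors 1 rose, Grm2 (9:106644534-106656109), an inhibitory receptor of mossy fibre terminals. Grm2 ran from 134.8 through 173.9 to 199.4 CPM in Ctrl and from 236.9 through 264.9 to 325.3 CPM in hCG libraries (0.68 ± 0.10). Every hCG library lay above every Ctrl library.

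Of 25 genes of GABA receptors and synapses 2 rose and 2 fell (0 and 1 without hCG libraries 4 and 6), and 20 of the 25 values were negative. Gabra5, which encodes the subunit of extrasynaptic GABA-A receptors, ran from 182.9 to 220.6 CPM in Ctrl and from 149.7 to 175 CPM in hCG libraries, without overlap (-0.33 ± 0.05, edgeR, adjusted p = 0.0017). The astrocytic GABA transporter Slc6a11 (-0.24 ± 0.07), the synthetic enzyme Gad1 (0.19 ± 0.05) and the GABA-B subunit Gabbr2 (0.22 ± 0.06) kept their calls in 3, 5 and 3 of the 12 fits. Of 43 monoamine, acetylcholine, opioid and peptide receptors 3 rose and none fell. Adra2c, an adrenergic receptor that lowers transmitter release, rose from 19.98 CPM (17.36 to 20.96) to 30.48 CPM (24.77 to 35.14), and the somatostatin receptor Sstr2 from 8.083 CPM (6.557 to 8.505) to 11.38 CPM (9.14 to 13.52). The groups did not overlap for either receptor (0.61 ± 0.09 and 0.51 ± 0.12). The serotonin receptor Htr5a rose by 0.46 ± 0.12, kept in 7 of the 12 fits. Of 19 neuropeptide and granin genes Chga alone was called, and it rose by 0.35 ± 0.08.

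Of 26 sodium, calcium and HCN channel genes 5 rose and none fell, with a median log2 fold change of 0.03; without hCG libraries 4 and 6, 3 rose. Cacna1h, the T-type calcium channel that opens at low voltage, ran from 200.1 through 253.1 to 285.5 CPM in Ctrl and from 342.2 through 417.9 to 550.9 CPM in hCG libraries. No library overlapped (0.83 ± 0.11, edgeR, adjusted p = 0.000963). The L-type channel Cacna1c rose from 194.8 to 240.8 CPM with overlap (0.28 ± 0.05). Cacna1e, Scn3a and Scn3b rose by 0.22 to 0.25 on the log2 scale and kept their calls in 4, 2 and 3 of the 12 fits. Potassium channel genes were divided, with 5 of 44 higher and 5 lower; without hCG libraries 4 and 6 the counts were 3 and 1. Kcnip2, a partner of A-type channels, rose from 239.9 CPM (234.2 to 261.6) to 322.5 CPM (301.7 to 376.8), and Kcnj6, a G-protein-gated channel, from 55.73 CPM (45.15 to 59.16) to 69.58 CPM (60.95 to 73.09). Neither overlapped (0.42 ± 0.06 and 0.32 ± 0.07). Kcnb2 (1:15286925-15723751), a delayed rectifier, fell from 9.805 CPM (7.643 to 10.63) to 5.019 CPM (4.31 to 6.062), without overlap (-0.92 ± 0.12), and the auxiliary subunit Kcnab1 fell by 0.27 ± 0.06. Kcng1 rose and Kcnip4, Kcnj3 and Kcnv1 fell, with calls kept in 10, 7, 3 and 4 of the 12 fits.

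**Figure D4:**
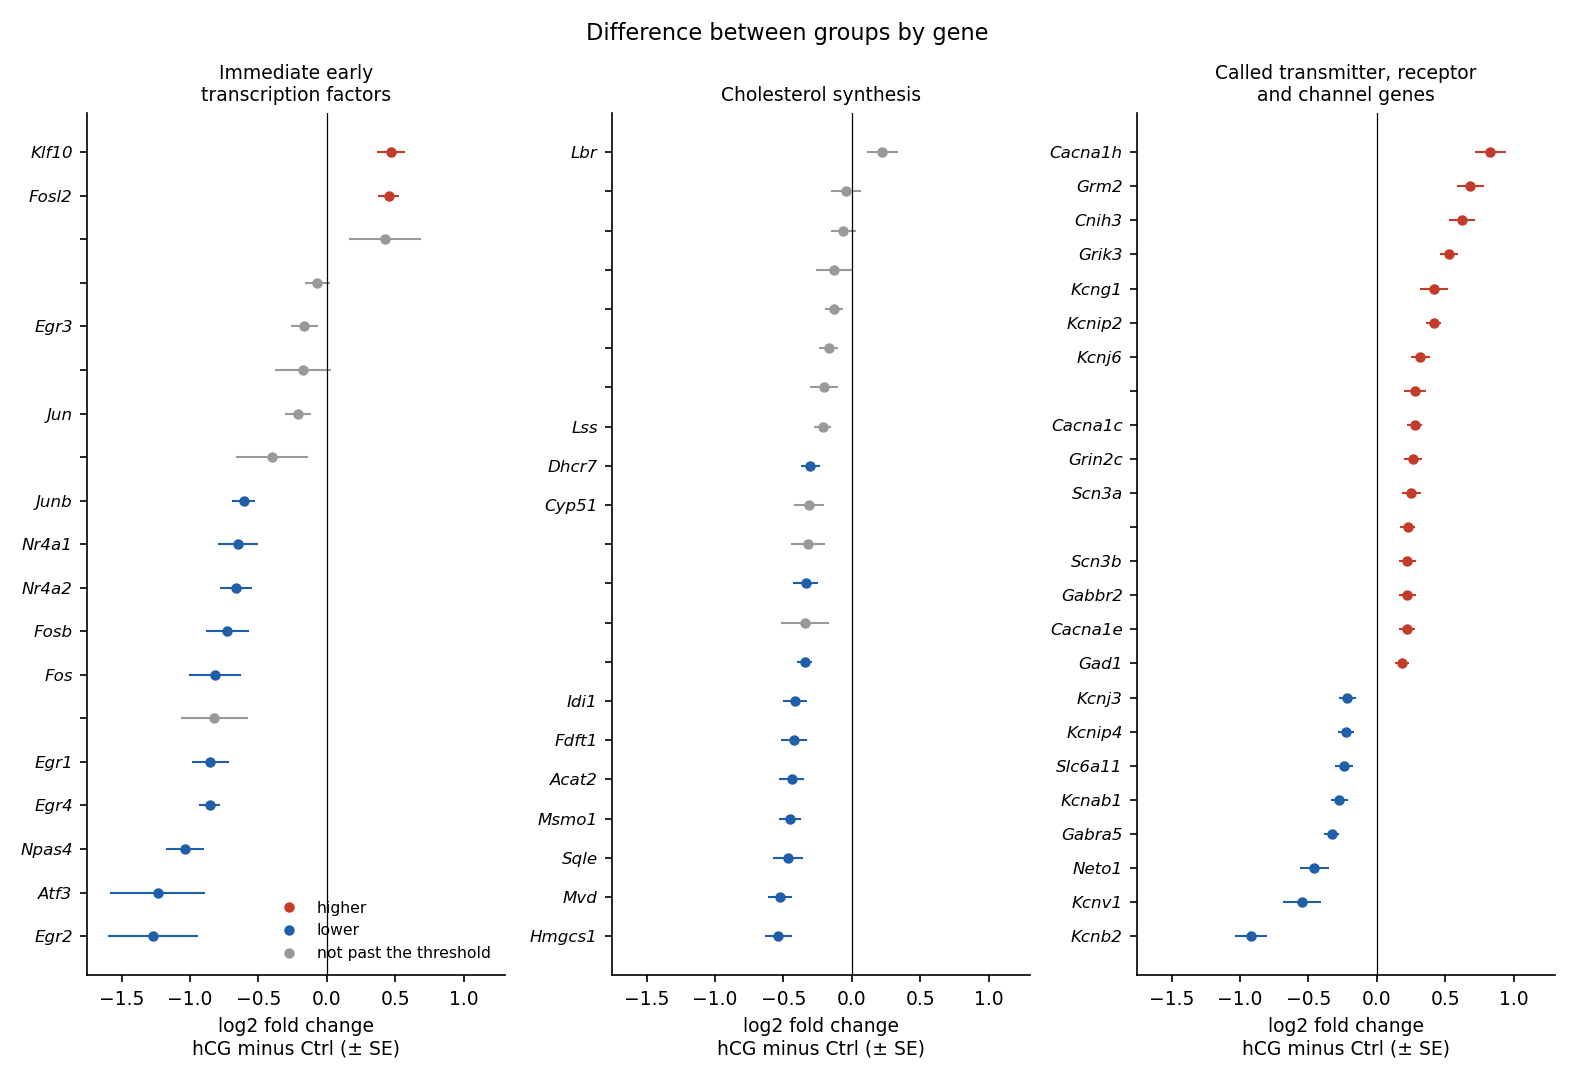
Log2 fold change (hCG minus Ctrl) with its SE for the 19 immediate early transcription factors, the 21 cholesterol synthesis genes and called transmitter, receptor and channel genes. The last are called members of the glutamate receptor, GABA, sodium, calcium and HCN channel, and potassium channel lists. Monoamine and peptide receptors are not drawn. Red is higher, blue lower and grey not past the threshold, with labels for genes described in the text. Of the 19 early factors 16, and of the 21 synthesis genes 20, lie left of 0, while the transmitter, receptor and channel genes lie on both sides.

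The called postsynaptic genes were higher, and most called presynaptic genes were lower. Of 33 postsynaptic scaffold and spine genes 4 rose and none fell, with a median log2 fold change of 0.05, and the count was also 4 without hCG libraries 4 and 6. Dbn1 (13:55473428-55488126), which encodes the spine actin-binding protein drebrin, ran from 355.7 through 377.8 to 406.1 CPM in Ctrl and from 514.6 through 578.5 to 642.9 CPM in hCG libraries. Every hCG library lay above every Ctrl library (0.59 ± 0.06, edgeR, adjusted p = 9.41e-05). The synapse-organising protein Lrrtm2 rose from 55.03 CPM (52.54 to 64.99) to 77.85 CPM (68.49 to 82.38), and the scaffold Dlgap1 from 665.6 CPM (641.7 to 740.4) to 783.9 CPM (759.7 to 865.6), both without overlap. Baiap2, a spine actin regulator, rose with overlap (0.39 ± 0.07). Of 40 genes of presynaptic vesicle release and recycling 5 fell and 2 rose, 34 of 40 values were negative, and the median was -0.15. These calls were weak, since without hCG libraries 4 and 6 the counts were 0 and 0, and none was kept in all 12 fits without 1 library. Syt11 (-0.23 ± 0.06) lost its call without Ctrl 2, Ctrl 6 or hCG 4. Synj1, Napb and Syt2 fell and Doc2b and Sv2c rose, kept in 4, 3, 5, 3 and 2 of the 12 fits. Whether presynaptic and postsynaptic genes differ from each other was not tested.

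Of 44 synaptic adhesion genes 5 fell and 1 rose (3 and 0 without hCG libraries 4 and 6), 34 values were negative, and the median log2 fold change was -0.10. Pcdh9 (-0.44 ± 0.08), Cdh10 (-0.45 ± 0.11), Ncam2 (-0.29 ± 0.07) and Cntn1 (-0.24 ± 0.05), all neuronal adhesion proteins, fell, and Tenm3 (-0.29 ± 0.07) lost its call without Ctrl library 6. Cntn1 ran from 448.4 through 452.2 to 509 CPM in Ctrl and from 368.1 through 395.5 to 426.5 CPM in hCG libraries, without overlap. Igsf8 rose by 0.19 ± 0.06 (kept in 3 of 12). Of 40 axon guidance genes none rose and 2 fell, near the 3.19% of all genes that fell. They were the ephrin Efnb2 (-0.61 ± 0.14) and its receptor Epha4 (-0.26 ± 0.07, kept in 6 of 12). Of 35 matrix genes 3 rose and none fell, and without hCG libraries 4 and 6, 1 rose and 1 fell. Acan, the aggrecan core protein of perineuronal nets, rose from 9.694 CPM (7.058 to 10.6) to 15.15 CPM (11.94 to 19.49), without overlap (0.71 ± 0.14, edgeR, adjusted p = 0.00625). Col4a2 (0.25 ± 0.06) lost its call without Ctrl library 2, and Sparcl1 (0.21 ± 0.05) kept it in 4 of the 12 fits.

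Adult neurogenesis genes moved in both directions, with 4 of 28 higher and 1 lower. Ccnd2, the D-type cyclin on which adult hippocampal progenitor division depends, ran from 95.08 through 100.7 to 109.6 CPM in Ctrl and from 53.78 through 68.94 to 77.05 CPM in hCG libraries, without overlap (-0.57 ± 0.08, edgeR, adjusted p = 0.000562). Tubb2b, a tubulin of growing neurites, rose from 205.6 CPM (182.2 to 220.1) to 284.8 CPM (254.2 to 306), without overlap (0.47 ± 0.06). Top2a, a gene of dividing cells, rose from 1.228 to 1.996 CPM (0.78 ± 0.20, kept in 6 of 12), while the division marker Mki67 did not pass (0.06, adjusted p = 0.891). Dcx, the marker of immature neurons, did not pass either (-0.25, adjusted p = 0.318), nor did Neurod1 (-0.07). Without hCG libraries 4 and 6, 1 rose and 1 fell. Of 18 granule neuron markers 4 rose and 1 fell, and Prox1 and Plk5 count among the risen genes of both this list and the neurogenesis list. The summed level of the granule neuron markers had a median of 2373 CPM in Ctrl (1889 to 2913) and 2831 CPM in hCG libraries (2498 to 3006), with overlap. Glis3 rose from 20.2 CPM (16.83 to 27.56) to 31.62 CPM (29.98 to 32.12) without overlap. Prox1, Plk5 and Rfx3 kept their calls in 4, 4 and 2 of the 12 fits, and the mature marker Calb1 did not pass (0.31, adjusted p = 0.0854). The counts without hCG libraries 4 and 6 were 1 and 0.

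Of 10 CA1 markers none was called, and of 13 CA3 and CA2 markers Rgs14, which is enriched in CA2, fell (-0.35 ± 0.09, kept in 8 of 12). Of the 13, 9 were negative, with a median of -0.28. Their summed level went the other way, with a median of 1816 CPM in Ctrl (1755 to 1879) and 1928 CPM in hCG libraries (1720 to 2130). Of 12 mossy cell markers Sv2c was called, higher, while 7 of the 12 were negative (median -0.06). Of 19 interneuron markers Gad1 was called, higher, while 14 of the 19 were negative (median -0.19). The interneuron sums had medians of 1024 CPM in Ctrl and 1030 CPM in hCG libraries. None of 11 cortical and thalamic markers was called, the cortical factor Tbr1 being the most abundant (0.18, edgeR, adjusted p = 0.129). Among glia, the transporter Slc6a11 was the 1 astrocyte marker of 20 called. Of 20 oligodendrocyte markers Opalin, a myelin membrane protein, fell from 4.514 CPM (3.297 to 7.834) to 2.026 CPM (1.653 to 3.845), while the summed level overlapped widely at 1437 to 3489 CPM in Ctrl and 1491 to 4802 CPM in hCG libraries. Of 12 oligodendrocyte precursor markers 3 rose: Olig2 (0.43 ± 0.09), Cspg4 (0.49 ± 0.09, no overlap) and Olig1 (0.31 ± 0.09, kept in 4 of 12). Cspg4 is also made by mural cells and was the 1 mural marker of 13 called. The microglial genes C1qa, C1qb and Tmem119 rose by 0.29 to 0.34, out of 19 markers, but were kept in 3, 2 and 4 of the 12 fits, and none of them without hCG libraries 4 and 6. Of 20 endothelial markers 19 were positive, with a median of 0.40, and 2 rose. Ly6c1 rose from 20.12 CPM (12.55 to 30.14) to 37.05 CPM (30.5 to 43.65), and the thyroid hormone transporter Slco1c1 (0.33 ± 0.08) lost its call without Ctrl 2, Ctrl 6 or hCG 4. The endothelial sum was 2208 CPM in hCG library 6 and 1778 CPM in hCG library 4. In the other hCG libraries it was 1356 to 1509 CPM, within the 1294 to 1551 CPM of Ctrl libraries. With the summed choroid plexus, ependymal and meningeal markers as a covariate, a fit chosen after seeing the data, 529 genes were higher and 344 lower. In that fit 0 microglial markers were higher (3 without the covariate), as were 1 granule neuron marker (4) and 1 neurogenesis gene (4). Prox1 and Plk5, which are in both the granule neuron and the neurogenesis lists, lost their calls in that fit.

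Of 51 splicing regulators 6 rose and 3 fell, where 4.67% of all genes rose and 3.19% fell. The number that rose was 11 without Ctrl library 5 and 4 to 7 without any other library, and the number that fell was 1 without Ctrl 3, Ctrl 6 or hCG 2 and 0 with the replicate number as a block. The hnRNP proteins Hnrnpm (0.42 ± 0.07) and Hnrnph1 (0.36 ± 0.06), the SR protein Srsf6 (0.40 ± 0.08) and Tardbp (0.32 ± 0.06) rose. Hnrnph1 ran from 253.8 through 276.1 to 329.8 CPM in Ctrl and from 338.7 through 357.3 to 386.7 CPM in hCG libraries, without overlap (edgeR, adjusted p = 0.00275). Tra2b fell by 0.27 ± 0.06, and Nova2, a neuronal splicing factor, by 0.20 ± 0.05, a call lost without Ctrl 3, Ctrl 6 or hCG 2. Srsf2 (0.30) and Taf15 (0.25) rose and kept their calls in 3 and 2 of the 12 fits. Of 36 Wnt genes Wnt7b (0.59 ± 0.13), Frzb and Fzd8 rose, the last 2 of them kept in 4 and 5 of the 12 fits, and Apc, which limits Wnt signalling, fell (-0.30 ± 0.05, no overlap). Of the Wnt genes, 0 rose and 3 fell without hCG libraries 4 and 6. Of 18 Notch genes Notch4 rose (0.89 ± 0.23, kept in 7 of 12) and Nrarp, a feedback inhibitor, fell (-0.36 ± 0.09). Of 37 growth factor genes the receptor subunit Cntfr (0.31 ± 0.06) rose, Fgf12 (-0.39 ± 0.08) fell, and Ntrk3 and Igf1r rose with calls kept in 2 of the 12 fits each. Without hCG libraries 4 and 6, 1 growth factor gene rose and 1 fell. The Wnt, Notch and growth factor counts lie near the share of all genes called, 7.86%.

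Of 13 DNA methylation and demethylation genes Gadd45b was the 1 called, near the 7.86% of all genes, and the methyltransferases Dnmt1 (0.01) and Dnmt3a (-0.02) and the oxidase Tet1 (0.13) did not pass. Of 16 methyl-CpG binding and H3K9 methyltransferase genes, Suv39h1 fell from 33.96 CPM (29.92 to 39.27) to 27.34 CPM (25.88 to 29.45), without overlap (-0.33 ± 0.08, edgeR, adjusted p = 0.0153), and Trim28 rose by 0.18 ± 0.05 (kept in 3 of 12). Of 35 imprinted genes, whose expression depends on the parent of origin, 1 fell, Copg2 (-0.24 ± 0.05, no overlap), and none rose. Over all genes 3.19% fell. Of 22 steroid, thyroid and gonadotropin receptor and steroid enzyme genes the retinoid X receptor Rxrb rose (0.21 ± 0.05) and Nr4a1 fell. Lhcgr, which encodes the receptor for hCG, did not reach the low-count filter. Of 28 interferon and antigen presentation genes Irf3 rose (0.47 ± 0.09), and although 25 of 28 values were positive with a median of 0.40, none of the others was called, the most abundant of them, B2m, standing at 0.42 (adjusted p = 0.056). None of 79 ribosomal protein genes (-0.36 to 0.27) and none of 75 respiratory chain genes (-0.23 to 0.11, 56 negative) was called. None of 7 tested blood cell markers was called. Of the 4 tested Y-linked genes the demethylase-family gene Uty rose from 15.52 CPM (12.1 to 15.99) to 21.93 CPM (20.08 to 25.33), without overlap (0.59 ± 0.09, adjusted p = 0.00134). Ddx3y (0.08, adjusted p = 0.512), Kdm5d (0.17, adjusted p = 0.139) and Eif2s3y (-0.30, adjusted p = 0.0509) did not pass.

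**Figure D5:**
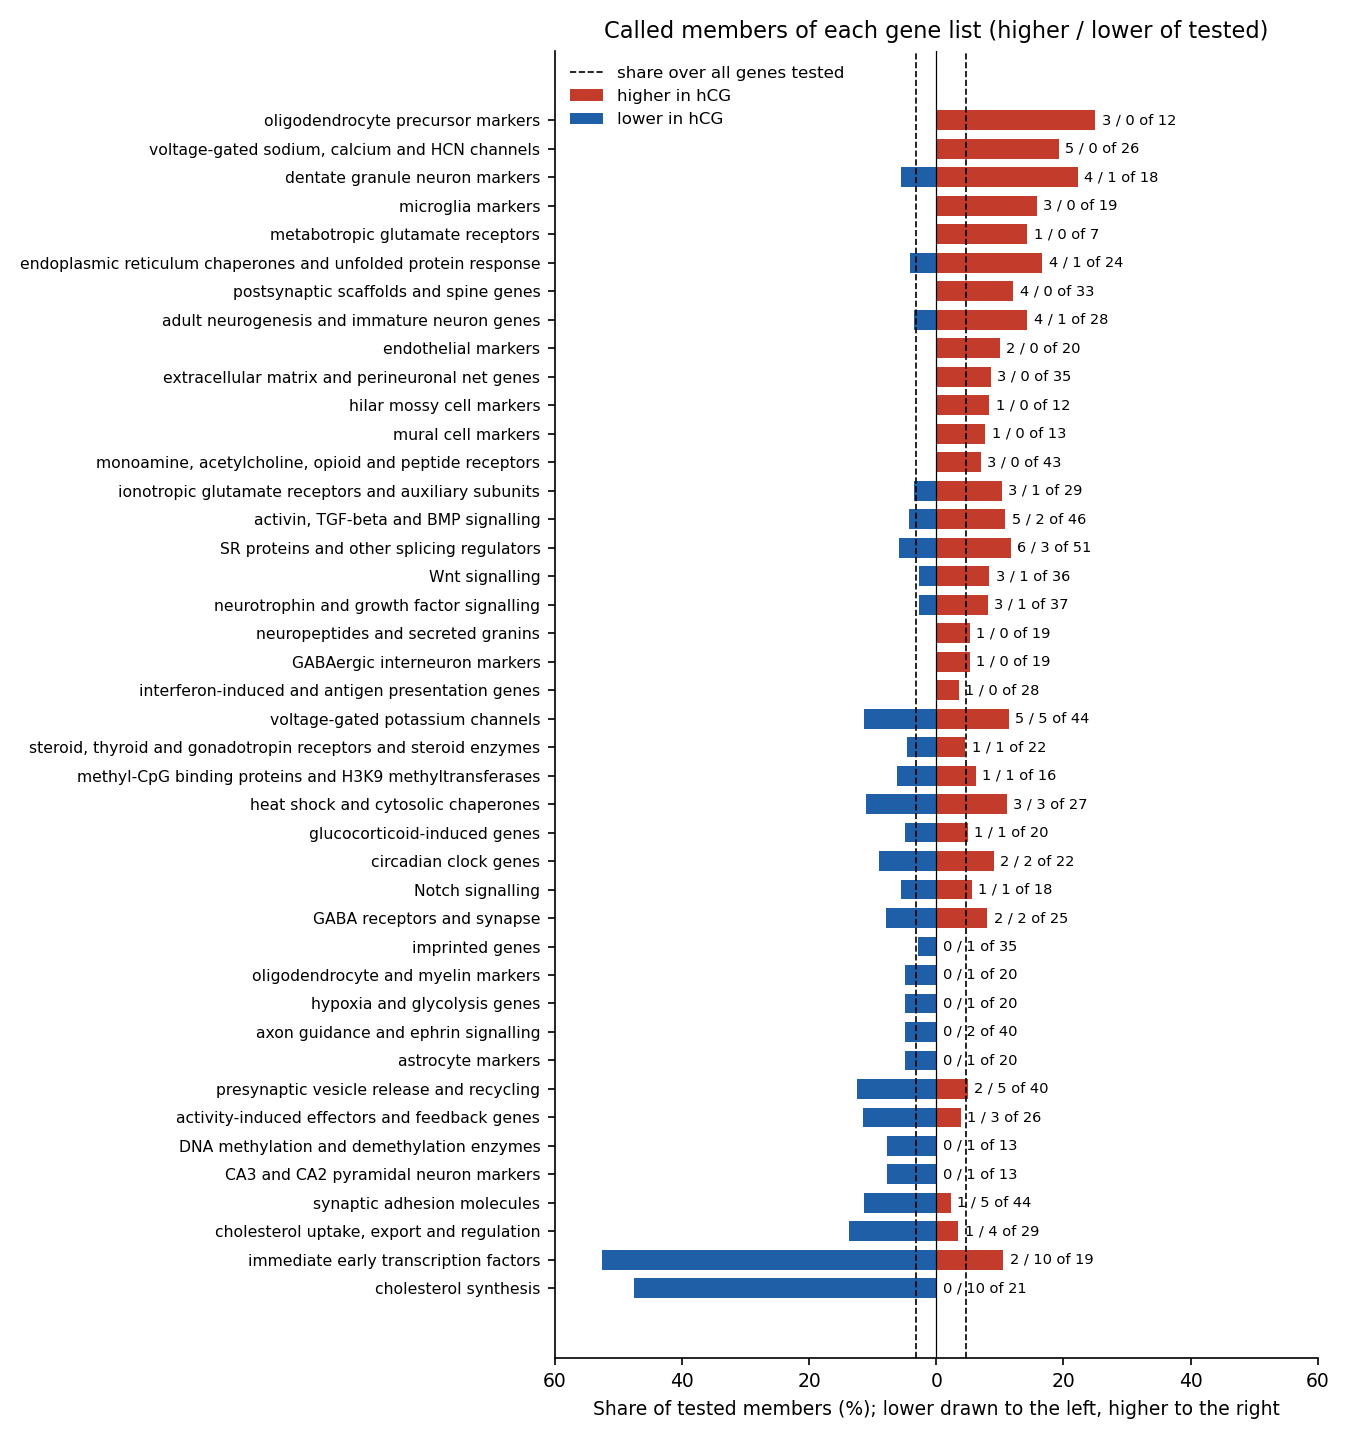
Share of tested members called higher (red, to the right) and lower (blue, to the left) in hCG offspring for each gene list with at least 5 tested members and 1 call, with the counts printed beside the bars and dashed lines at the shares over all genes, 4.67% and 3.19%. Immediate early transcription factors (10 of 19 lower) and cholesterol synthesis (10 of 21 lower) have the longest bars to the left.

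The table is divided by RefSeq transcript, and the same test on 18625 transcripts called 377 higher (2.02%) and 231 lower (1.24%). How reads were shared among transcripts of a gene is the authors' estimate and is uncertain. Of the 1091 called genes 518 had a called transcript, and 70 genes had a called transcript without a call for the gene. For Rbm3, 4 of 5 tested transcripts fell, with log2 fold changes of -1.62 to -1.34, while NM_016809 had -0.37 ± 0.15 (edgeR, adjusted p = 0.21). Both tested Dbn1 transcripts rose, NM_001177371 by 0.65 ± 0.06 and NM_001177372 by 0.35 ± 0.08. Transcripts of 1 gene were called in opposite directions in 3 of 3116 genes with at least 2 tested transcripts: Pde2a, Dido1 and Sin3b. For Pde2a, a cyclic nucleotide phosphodiesterase, NM_001008548 rose from a mean of 84.57 to 139.0 CPM (0.72 ± 0.15) and NM_001143848 fell from 49.41 to 25.24 CPM (-0.97 ± 0.19). For Dido1 the values were 0.27 ± 0.06 for NM_175551 and -0.61 ± 0.10 for NM_001291432, and for Sin3b, a co-repressor scaffold, 0.31 ± 0.08 for NM_009188 and -0.68 ± 0.15 for NM_001113248.

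Called genes lay on every chromosome. The share called higher ran from 2.74% on chromosome 18 to 6.37% on chromosome 8, and the share called lower from 1.76% on chromosome 9 to 5.51% on the X chromosome, where 27 of 490 tested genes fell, leaving aside the Y chromosome with 4 genes tested. Genes that fell were longer, with a median annotated length of 35381 bp against 24827 bp over all tested genes and 25405 bp for genes that rose. With genes divided by length into 5 classes of equal number, the share that fell was 2.14% in the shortest class (374 to 8204 bp) and 4.85% in the longest (78689 to 2390387 bp), with 3.04%, 2.79% and 3.18% between. The share that rose was between 4.34% and 4.96% in every class. Neither pattern was given a test, and RNA quality measures were not used here.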

How the data were processed

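RNA of the dorsal dentate gyrus was measured in 12 libraries, 6 per group, from polyadenylated RNA per the labels' protocols. The deposited table holds the authors' expected counts for 35034 RefSeq transcripts; between 26.8% and 28.2% of a library's values have decimals. What estimated them is not given in the sources used here. The submitters' processing notes name Trim Galore 0.6.4, STAR 2.7.6a and HTSeq 0.12.4 and the builds mm10 and GRCm38, without saying which served this table. Strandedness is not given, so reads of overlapping genes and antisense partners may be mixed. Oocyte and blastocyst RNA and bisulfite libraries were not analysed here.

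Transcripts were summed for each of 24409 gene names and rounded. Of these names, 25 read as dates and were not interpreted, and 24263 (99.4%) matched the RefSeq table (GRCm38.p6), the source of positions and promoters. Genes were kept by edgeR's filterByExpr (minimum count 10, total 15), scaled by TMM and fitted over the 12 libraries with the robust quasi-likelihood model of edgeR 4.0.16 in R 4.3.3 (two-sided F test), with Benjamini-Hochberg adjustment over all tested genes and a threshold of 0.05 without a minimum fold. The standard error is the log2 fold change divided by the square root of F. The procedure was tested on simulated counts. Library measures were compared by two-sided exact permutation tests. Replicate numbers were not treated as pairs in the main fit. Alternatives were DESeq2 1.42.0, limma 3.58.1 voom, other scalings and filters, a minimum fold, a replicate block and fits without 1 library. Genes were named by a rule: the 12 largest rises and falls at a mean of at least 5 CPM without overlap between groups, the 6 smallest p per direction, and up to 4 called members of each list, or 2 where none was called. Other members were named after their values had been seen, and some that the rule picks were left out for length; a few results are not reported here. The members and lists were chosen with earlier results of these data known.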

Additional observations from a re-analysis of the deposited data

Results flagged for a closer look

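In 28 of 372 groups of 6 libraries examined (7.53%), 1 library stood apart from the other 5 by Dixon's criterion, which chance alone meets in about 1 in 20 groups. Ctrl library 1 accounted for 12 of these. It was lowest for Fst at 5.657 CPM (nearest 9.011), Skil at 73.66 (100.9), Smad7 at 19.16 (22.74), Atf6 at 132.9 (152.7), Kcnj6 at 45.15 (54.46), Uty at 12.1 (14.7) and Trib2 at 42.52 (63.06). It was highest for Sqle at 61.45 CPM (nearest 46.47), Acat2 at 54.95 (45.34), Ano2 at 13.61 (7.934), Igsf8 at 207.7 (187.1) and the summed hilar mossy cell markers at 681.7 (540.3). Ctrl library 5 held the fewest detected genes, 16020 against 16290 in the nearest, the lowest Olig1 at 38.82 CPM (50.89), and the highest Hnrnph1 at 329.8 (278.2), Srsf6 at 152.9 (118.0), Tardbp at 239.9 (206.4) and Trim28 at 205.9 (185.9). Ctrl library 4 was highest for Fzd8 at 7.334 CPM (5.938) and Ctrl library 6 for Elovl6 at 69.92 (57.41).

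Among hCG libraries, number 4 was highest for Fosl2 at 117.1 CPM (nearest 95.16), Rhbdl3 at 70.21 (49.68) and Nrarp at 19.49 (15.86), and lowest for Olig2 at 16.43 (20.67). Library 1 was highest for Dlgap1 at 865.6 CPM (795.1). Library 2 was lowest for Cacna1c at 206.7 CPM (236.8), library 3 highest for Kcnip2 at 376.8 (326.5), and library 6 highest for the summed choroid plexus markers at 14160 (404.7). Smad7 lost its call without Ctrl library 1, and Elovl6 lost its call without Ctrl library 6. The other flagged genes kept their calls without the library that stood apart for them.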

How the results depend on the processing

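Of 170 called genes followed through 23 settings, none changed direction, 36 kept their call in every setting and 42 more in every setting except the minimum fold of 1.2. Without each library in turn, 103 kept it. The 170 were the genes picked by the naming rule and the called list members, so these shares do not describe all 1091 called genes. The counts of 648 genes higher and 443 lower became 880 and 707 with DESeq2, and 55 and 18 with a minimum fold of 1.2. Without hCG libraries 4 and 6 they were 357 and 189, and with the choroid, ependymal and meningeal marker sum as a covariate 529 and 344, both chosen after seeing the data. Other tools, scalings and filters gave 515 to 773 higher and 392 to 491 lower. Without 1 library, the counts ran from 395 to 684 higher and from 254 to 547 lower; they moved by more than 1.5 times without Ctrl 2 (404 and 277), Ctrl 3 (416 and 266), Ctrl 6 (395 and 254) and, for lower genes, hCG 4 (287). List counts ranged likewise without 1 library: 7 to 10 immediate early factors and 9 to 11 cholesterol synthesis genes lower, 3 to 6 activin and TGF-beta genes higher, 2 to 5 endoplasmic reticulum genes, 1 to 4 neurogenesis genes and 1 to 5 granule neuron markers higher, and 0 to 7 presynaptic genes lower.

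Samples with the same replicate number did not deviate together (correlations -0.147 to 0.179), so the numbers do not pair the groups; with the replicate block 388 genes were higher and 195 lower, and 75 and 24 transcripts. In 1 of 12 libraries the best match was the library of its own number.

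For transcripts, 377 higher and 231 lower became 240 and 148 with no low-count filter. Without 1 library they ran from 148 to 400 and from 79 to 281, with counts moved by more than 1.5 times without Ctrl 2, 3, 4 or 6 or hCG 3, 4, 5 or 6. The share of counts in the 10 most abundant genes was 0.284 percentage points higher in hCG (exact permutation p = 0.0216, the smallest possible being 0.00216), while for the 50 most abundant genes the difference was 0.187 (p = 0.333). For the 10 genes hCG library 6, rich in choroid plexus markers, held 4.382%. The other hCG libraries held 3.55% to 3.96% and Ctrl libraries 3.411% to 3.577%. The difference without hCG library 6 was not tested for the 10 genes. Of genes under 1 CPM, 2.3% were called; whether depth sets this was not tested.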

Other observations

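In a principal component analysis of the 1000 most variable genes, the first component held 34.1% of the variance. On it hCG library 6 stood at 42.45 and hCG library 4 at 21.73, and the other 10 libraries, of both groups, between -21.87 and 9.11, so the component did not divide the groups. By annotated biotype, the called genes were 633 higher and 435 lower of 13370 protein-coding genes, and 4 higher and 6 lower of 360 long non-coding RNAs.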
